A study of Mus musculus with 16 samples.

Results

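The 37 genes described here drive DNA replication and cell division, and they were followed through sorted cells of the mouse thymus. They were listed by name, and each was read from the brightest of its probe sets, by the mean over all arrays. Of the 37, 34 had a probe set that carried their symbol alone and 33 passed the filter on dim signals, out of 8251 and 6918 genes on the array. Ccnb1 and Bub1b matched no probe set, Tyms was represented only on probe sets that carry further symbols, and the probe set of Mcm6 lay between 1.4 and 11.9 on every array and was not tested. The list was drawn up by name, not by signal, but with earlier results of these data known.

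Total RNA of FACS-sorted cells was measured on 16 arrays, with 2 per group in 8 groups. In wild-type mice and in Aire knockouts, medullary epithelial cells of the thymus (mTEC) were separated into CD80hi and CD80lo fractions. CD80 is a costimulatory surface protein whose level rises as mTEC mature. In the other 4 groups, all wild type, were mTEC not split by CD80, cortical epithelial cells (cTEC), dendritic cells and macrophages, each sorted from thymus. Aire is a transcriptional regulator with which mTEC express genes of many other tissues. The labels give no strain, age or construct of the knockout and do not say whether the 2 samples of a group came from separate mice, so p-values measure only the spread between these samples, which may be technical. The number of arrays limits the precision. Values are linear array signals, shown as both arrays of a group in the order of their sample numbers or as mean ± SD (n = 2). Fold changes are differences of log2(signal + 4.8) ± the standard error of a limma fit over all 16 arrays, with Benjamini-Hochberg adjusted p-values over 9319 probe sets and a threshold of 0.05. The constant makes the fold changes of dim genes too small.

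A dividing cell first licenses its replication origins by loading the MCM helicase, with Cdc6 as a loading factor, then copies its DNA with nucleotides supplied by enzymes such as thymidine kinase and ribonucleotide reductase. Cyclins switch the cyclin-dependent kinases on from phase to phase, and mitotic kinases, motors and a spindle checkpoint then separate the chromosomes. Inhibitors of the p21 and p15 families hold the kinases back, and the transcripts of most of these genes are scarce in resting cells, so that they serve as a sign of cycling in mixed populations. In the thymus, immature mTEC and thymocytes are known to divide. In RNA of sorted populations, fewer cycling cells and less transcript per cell cannot be told apart.

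The labels were first set against marker genes. The Aire probe set read 1829 and 1704 in wild-type CD80hi and 1589 and 1385 in knockout CD80hi cells. In CD80lo cells it read 196 and 94.4 for wild type and 127 and 83 for the knockout. Where this probe set lies with regard to the deletion is not given in the sources used here, so it checks nothing about the genotype, and knockout means labelled as knockout. The summed signal of 4 medullary markers, Aire among them, was 1976 to 3379 in mTEC and 70.8 to 187 in cTEC, dendritic cells and macrophages. It was 2625 and 2670 on the wild-type CD80hi and 383 and 268 on the wild-type CD80lo arrays. On arrays 1 and 2 of knockout CD80lo it was 2016 and 637, and array 1 stood apart from all other CD80lo arrays. Of the sum on that array, Cldn4 gave 1585 and Aire 127. Transcripts listed as markers of other cells were present. Of 16 thymocyte markers 14 had a probe set, none was at 0, and their summed signal was 570 and 622 in mTEC, 4845 and 8733 in cTEC, 3221 and 3274 in dendritic cells, and 9176 and 3497 in macrophages. In dendritic cells Cd8a was the largest part of this sum, at 1422 and 1107, and Cd8b1 came next, at 594.5 and 530.4. Whether these came from thymocytes or from the dendritic cells themselves was not tested. Macrophage array 1 also carried the epithelial keratins Krt8 (1213 against 172 on array 2) and Krt18 (733 against 46.4). The main counts or medians that rest on these arrays are also given without them.

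The promoters of these genes are shown first, because many of the genes changed in the same direction, with the motifs known from both waves of cell cycle transcription. E2F factors act on genes of replication, and a complex with MuvB proteins acts on mitotic genes through the CHR element, often beside CCAAT boxes. RefSeq windows on GRCm38.p6, from 250 bases before to 50 after the start, were found for 34 of the 37 genes. They were searched on both strands for the E2F letters TTCCCGC or the variants TTCGCGC or also TTGGCGC or finally TTGCCGC, for CHR as TTTGAA or otherwise TTCGAA, and for the letters CCAAT. The letters TTGGCGC can overlap a CCAAT on the other strand. Below are the 180 bases upstream of 5 genes whose values are given in full, read 5′ to 3′ on the gene's strand, with motif letters in capitals. Cdc6 stands for the E2F kind, Ccnb2 and Mcm2 for the CHR and CCAAT kind, and Cdk1 and Mki67 for genes with both.
Cdc6, chr11:98907971-98908150, plus strand: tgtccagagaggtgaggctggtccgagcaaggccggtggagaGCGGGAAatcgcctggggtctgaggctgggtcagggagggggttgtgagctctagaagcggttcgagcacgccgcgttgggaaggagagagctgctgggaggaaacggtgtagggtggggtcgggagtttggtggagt
Cdk1, chr10:69352913-69353092, minus strand: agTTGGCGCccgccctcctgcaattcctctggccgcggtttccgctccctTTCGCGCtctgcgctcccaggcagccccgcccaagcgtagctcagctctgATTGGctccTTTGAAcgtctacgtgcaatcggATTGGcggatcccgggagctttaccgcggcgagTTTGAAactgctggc
Mki67, chr7:135716380-135716559, minus strand: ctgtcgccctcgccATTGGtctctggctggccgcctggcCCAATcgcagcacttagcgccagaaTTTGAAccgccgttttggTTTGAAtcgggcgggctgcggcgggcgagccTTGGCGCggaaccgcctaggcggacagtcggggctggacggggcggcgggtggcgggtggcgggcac
Ccnb2, chr9:70421555-70421734, minus strand: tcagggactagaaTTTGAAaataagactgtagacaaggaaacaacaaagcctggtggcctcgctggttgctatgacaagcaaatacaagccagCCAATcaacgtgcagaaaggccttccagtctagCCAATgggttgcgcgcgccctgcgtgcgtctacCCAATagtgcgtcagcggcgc
Mcm2, chr6:88898781-88898960, minus strand: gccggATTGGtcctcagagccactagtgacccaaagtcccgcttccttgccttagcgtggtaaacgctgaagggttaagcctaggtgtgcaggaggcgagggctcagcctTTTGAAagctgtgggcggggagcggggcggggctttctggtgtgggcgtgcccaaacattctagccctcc
Cdc6 had 1 E2F match, GCGGGAA on the shown strand, starting 138 bases before the start. Cdk1 and Mki67 each held 2 CHR and 2 CCAAT matches, Cdk1 with 2 and Mki67 with 1 E2F match. Ccnb2 held 3 CCAAT matches 87, 54 and 21 bases before the start and 1 CHR at 167 bases.

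Over the 34 windows, 14 (41.2%) held an E2F match, against 10.9% of 27025 genes with a window, and 14 (41.2%) held CHR together with CCAAT, against 8.61%. By role the counts were as follows. Of 8 genes of nucleotide supply and DNA synthesis, 5 held an E2F match and 0 a CHR, whereas of 8 mitotic kinase and checkpoint genes 0 held an E2F match and 6 held CHR with CCAAT. Of 7 licensing genes, 5 held an E2F match and 3 held CHR with CCAAT, and of 4 cyclin and Cdk1 genes 2 held each kind. A match is a description of these letters and shows neither binding nor a cause.

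In the 4 populations not split by CD80, mTEC had the lowest mean signal for all 33 tested genes. Dendritic cells had the highest mean for 30 of them, cTEC for Cdc6 and Chek1, and macrophages for Ube2c. With each gene centred on its mean over the 16 arrays, the median of the 33 genes was -0.70 and -0.21 on the log2 scale in mTEC, 0.10 and 0.86 in cTEC, 0.89 and 0.42 in macrophages and 1.47 and 1.53 in dendritic cells. Both mTEC arrays thus lay below all others of these 4 populations, both dendritic cell arrays lay above them, and the cTEC and macrophage arrays overlapped. On the wild-type CD80lo mTEC arrays the median was higher than on these mTEC arrays, at -0.02 and -0.08. The thymocyte marker sums were 3274 and 3221 in dendritic cells, 4845 and 8733 in cTEC and 9176 and 3497 in macrophages. The part of thymocytes in the levels of these 3 populations was not tested.

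**Figure D1:**
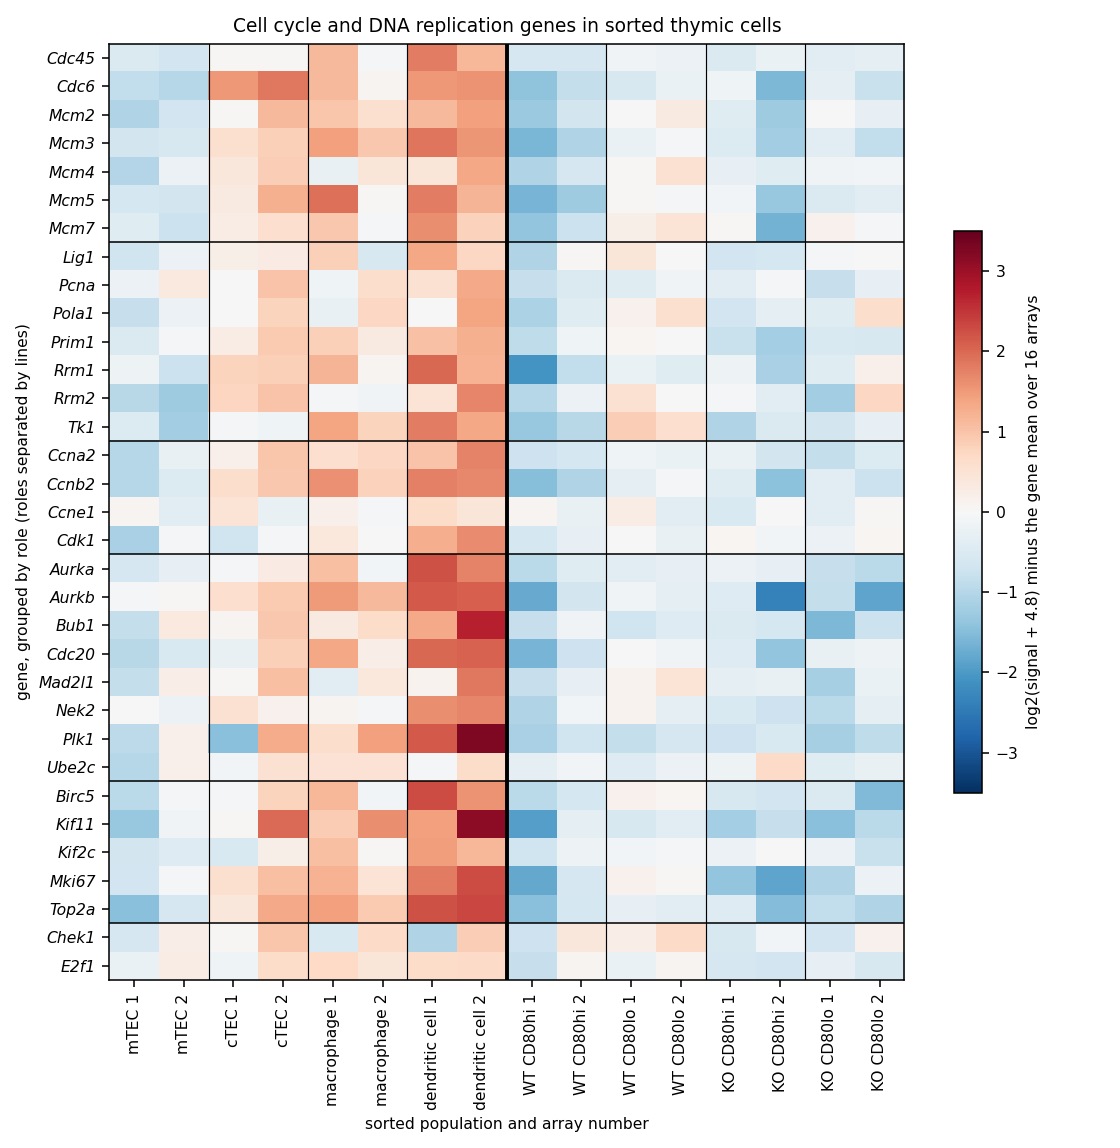
Each row is one of 33 genes and each column an array, coloured by log2(signal + 4.8) minus the gene's mean over 16 arrays; lines separate roles, and the heavy line separates the CD80-sorted groups on the right. The dendritic cell columns are red for nearly every gene, with medians of 1.47 and 1.53, and the mTEC columns are mostly blue, with medians of -0.70 and -0.21.

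mTEC were set against dendritic cells, the bone-marrow-derived antigen-presenting cells of the medulla. Of the 33 genes, 26 passed the test and all 26 were lower in mTEC, while 7.58% of all tested probe sets were called lower. The median change of the 33 was -2.09, against 0.10 over all tested probe sets, and single genes ranged from -3.31 for Top2a to -0.09 for Chek1. Both mTEC arrays lay below both dendritic cell arrays for 30 of the 33, against 24.1% of all probe sets. All 7 tested licensing and all 5 chromosome and spindle genes passed, as did 5 of 7 of DNA synthesis, 3 of 4 cyclin and Cdk1 genes and 6 of 8 mitotic kinase and checkpoint genes, but neither E2f1 nor Chek1. Leaving out any 1 array left 18 to 24 calls, and 15 genes kept theirs in every case. The 11 that lost it without at least 1 array were Mcm4, Mcm5, Mcm7, Rrm1, Rrm2, Prim1, Lig1, Plk1, Aurkb, Bub1 and Kif11. The thymocyte sums differed too (570 and 622 against 3274 and 3221), with Cd8a the largest part in dendritic cells. Of 14 thymocyte markers 4 were called lower in mTEC, namely Cd8a, Cd8b1, Rag1 and Thy1. The part of thymocytes in this result was not tested.

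The licensing genes were lower in mTEC as a group, with a median change of -2.13 against dendritic cells. Mcm2, a subunit of the replicative helicase (probe set 93112_at), gave 44.6 and 59.7 in mTEC, 102 and 221 in cTEC, 196 and 147 in macrophages and 221 and 272 in dendritic cells. Its arrays did not overlap between mTEC and any of the other populations, and its change against dendritic cells was -2.15 ± 0.41, adjusted p = 0.0013. Mcm3, another subunit of the same ring (160496_s_at, whose suffix marks probes shared with related transcripts), gave 90.1 and 95.6 in mTEC, 214 and 260.3 in cTEC, 398 and 279 in macrophages and 536 and 426 in dendritic cells, a change of -2.31 ± 0.34, adjusted p = 0.000182. A further Mcm3 probe set changed alike, by -2.08 (adjusted p = 0.000735). Mcm4 (93041_at) gave 65.7 and 119 in mTEC, 184 and 255 in cTEC, 114 and 187 in macrophages and 188 and 362 in dendritic cells, with array 2 above array 1 in every population and a change of -1.51 ± 0.40, adjusted p = 0.012. Cdc6, which loads the helicase at origins (103821_at), gave 45.7 and 41.4 in mTEC, 260.4 and 327 in cTEC, 198 and 93.1 in macrophages and 259 and 267 in dendritic cells. Here cTEC stood with dendritic cells rather than with mTEC, and mTEC lay -2.47 ± 0.45 from dendritic cells (adjusted p = 0.00101). Mcm5, Mcm7 and Cdc45, the last a partner of the moving helicase, changed by -2.13, -1.81 and -2.07, all called.

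Nucleotide supply and DNA synthesis varied more between genes. Tk1, the thymidine kinase that salvages a DNA precursor (96081_at), gave 78.8 and 45.0 in mTEC, 107 and 99.4 in cTEC, 295 and 195 in macrophages and 395 and 289.8 in dendritic cells. Of these populations, both epithelial ones were low and both blood-derived ones high. Wild-type CD80lo mTEC, described below, gave 205 and 169, above both cTEC arrays. The change from dendritic cells to mTEC not split by CD80 was -2.41 ± 0.35, adjusted p = 0.000168. A second, dim Tk1 probe set, at 3.2 to 28.9 on all arrays, had the opposite sign here (0.08, adjusted p = 0.949). Rrm2, the regulated subunit of ribonucleotide reductase (102001_at), gave 16.7 and 13.0 in mTEC, 66.3 and 80.0 in cTEC, 36.7 and 34.4 in macrophages and 54.3 and 133 in dendritic cells, and its partner Rrm1 moved by -2.09 against dendritic cells. Rrm2 was thus lowest in mTEC and next lowest in macrophages, and cTEC overlapped dendritic cells. Pcna, the sliding clamp of the DNA polymerases (101065_at), gave 469 and 694 in mTEC, 543 and 1086 in cTEC, 489 and 833 in macrophages and 788 and 1378 in dendritic cells. It was bright in every population, array 2 exceeded array 1 in all 4, and its change of -0.86 ± 0.41 against dendritic cells did not pass (adjusted p = 0.159). The primase subunit Prim1 (-1.40) and the ligase Lig1 (-1.49) passed, and the polymerase subunit Pola1 (-1.20) did not.

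Among the cyclins, those of S phase and mitosis were called lower in mTEC than in dendritic cells, and the G1 cyclin was not. Ccnb2, a B cyclin that activates Cdk1 in mitosis (94294_at), gave 132 and 192 in mTEC, 413 and 526 in cTEC, 822 and 471 in macrophages and 922 and 868 in dendritic cells, a change of -2.45 ± 0.39, adjusted p = 0.000291 against dendritic cells. Ccna2, the A cyclin of S phase and G2 (99186_at), gave 76.9 and 129.8 in mTEC, 179.9 and 312 in cTEC, 240.1 and 263 in macrophages and 318 and 540.5 in dendritic cells, with a change of -2.0 ± 0.37, adjusted p = 0.00102. Cdk1, the kinase both activate (100128_at), gave 50.7 and 114 in mTEC, 69.9 and 114 in cTEC, 153 and 115 in macrophages and 288 and 381 in dendritic cells. Its dendritic cell arrays stood alone, its other arrays overlapped in part, and the change from dendritic cells to mTEC was -2.05 ± 0.38, adjusted p = 0.00107. Ccne1, a cyclin of the G1 to S transition (103034_at), gave 76.9 and 53.1 in mTEC, 102 and 59.0 in cTEC, 80.5 and 68.7 in macrophages and 113 and 96.2 in dendritic cells, with array 1 above array 2 in all 4 populations. Its mean too was lowest in mTEC and highest in dendritic cells, but the differences were small and no comparison called it.

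Against dendritic cells the 3 largest changes were those of the mitotic genes Top2a, Plk1 and Kif11. Top2a, the topoisomerase that untangles replicated chromosomes (99578_at), gave 37.2 and 71.2 in mTEC, 145 and 284 in cTEC, 308 and 213 in macrophages and 533 and 576 in dendritic cells. Its mean increased in the order mTEC, cTEC, macrophages and dendritic cells, cTEC and macrophage arrays overlapped, and mTEC lay -3.31 ± 0.45 from dendritic cells (adjusted p = 8.41e-05). Mki67, a protein of the mitotic chromosome surface used as a proliferation marker (99457_at), gave 107 and 165 in mTEC, 259 and 368 in cTEC, 409 and 244 in macrophages and 620.2 and 867 in dendritic cells, a change of -2.43 ± 0.45, adjusted p = 0.001. Its second probe set stayed between 6.1 and 20.6 on all arrays. Aurka, a kinase of the spindle poles (92639_at), gave 22.8 and 29.3 in mTEC, 36.1 and 46.2 in cTEC, 81.2 and 34.1 in macrophages and 191 and 134 in dendritic cells. Nek2, a centrosomal kinase (100885_at), gave 89.9 and 76.5 in mTEC, 131 and 99.3 in cTEC, 95.5 and 86.1 in macrophages and 285 and 301 in dendritic cells. For both genes the dendritic cell arrays lay above all others, and macrophage array 1 came next for Aurka. Their changes were -2.42 ± 0.38 (adjusted p = 0.000303) and -1.76 ± 0.36 (adjusted p = 0.00214). Plk1, a kinase of mitotic entry, changed by -3.07 on its brightest probe set and by -1.36 and -2.08 on the others, all called. The spindle motors Kif11 (-3.01) and Kif2c (-1.87), the passenger proteins Aurkb (-2.13) and Birc5 (-2.45), the checkpoint kinase Bub1 (-2.28) and the anaphase activator Cdc20 (-2.78) were all called lower in mTEC. The checkpoint protein Mad2l1 (-1.28) and the ubiquitin-conjugating enzyme Ube2c (-0.70) did not pass.

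E2f1 and Chek1, a transcription factor of the G1 to S switch and a kinase of the DNA damage checkpoint, did not pass in any comparison. E2f1 (161427_f_at, with a suffix for probes shared within a family) gave 22.2 and 32.7 in mTEC, 23.6 and 44.2 in cTEC, 46.0 and 37.9 in macrophages and 44.3 and 45.4 in dendritic cells. Its second, dimmer probe set differed more, with 11.8 and 5.10 in mTEC and 50.2 and 40 in dendritic cells, a change of -1.95 (adjusted p = 0.00147), so the call for E2f1 depended on the probe set. Over all further probe sets, 6 of 8 had the sign of the brightest one in this comparison, and those of Tk1 and Mki67 did not. Over the 11 comparisons 3 to 7 of the 8 did.

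**Figure D2:**
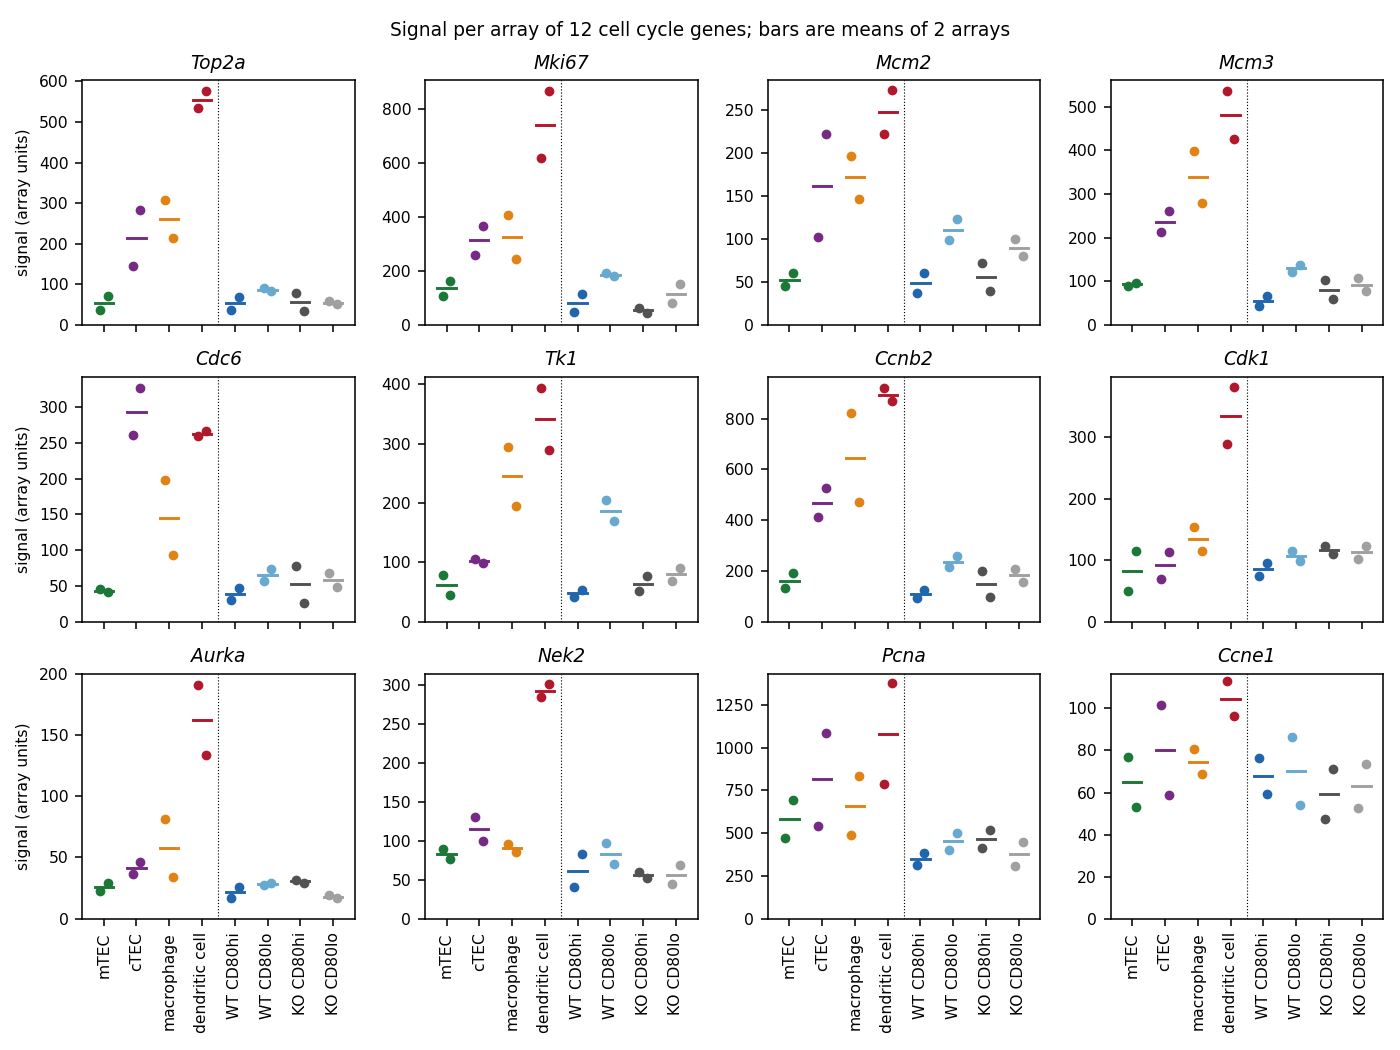
Each panel plots the linear signal of 1 gene, with a point per array, array 1 left of array 2, and a bar at the mean of 2; the dotted line separates the CD80-sorted groups. Top2a reaches 533 and 576 in dendritic cells against 37.2 and 71.2 in mTEC, Cdc6 is highest in cTEC at 260.4 and 327, and Ccne1 lies between 47.2 and 113 on all 16 arrays.

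The comparison with cTEC asks how both epithelial types differ. The fold change was below 0 for all 33 genes, and 8 passed, all lower in mTEC, where 4.25% of all tested probe sets were called lower. They were Cdc6 (-2.62 ± 0.45, adjusted p = 0.00109), Rrm2 (-1.99), Top2a (-1.88), Ccnb2 (-1.52), Mcm2 (-1.46), Mcm3 (-1.30), Mcm4 (-1.25) and Ccna2 (-1.21). Thus 4 of the 8 were helicase or licensing genes. The median change was -0.86, against -0.03 over all probe sets, and arrays did not overlap for 23 of 33, against 26.4% of probe sets lower in this way. For Cdc6 the mean was 43.5 ± 3.04 in mTEC and 294 ± 46.9 in cTEC. It alone kept its call without any 1 array. Without array 2 of cTEC, or without array 1 of mTEC, it was the 1 gene called, and the other 7 reached an adjusted p of 0.122 to 0.348 at most over these fits. Without array 2 of mTEC 5 genes were called. Thymocyte markers moved with this comparison, with 12 of 14 called lower in mTEC, a sum of 4845 on array 1 and 8733 on array 2 of cTEC, and medians of the 33 genes of 0.10 and 0.86 on the same arrays. Their part in the result was not tested.

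Against macrophages, the phagocytes that clear dying thymocytes, 10 of the 33 genes passed and all were lower in mTEC, with 7.37% of probe sets called lower. The smallest adjusted p belonged to Tk1 (-1.92 ± 0.35, adjusted p = 0.00112), Mcm3 (-1.79 ± 0.34, adjusted p = 0.0015) and Ccnb2 (-1.93 ± 0.39, adjusted p = 0.00206), and the others were Top2a, Mcm2, Mcm5, Ccna2, Cdc20, Cdc6 and Cdc45. The median change was -1.05 against 0.01 over all probe sets, and both mTEC arrays lay below both macrophage arrays for 23 genes, against 24.6% of probe sets. Without macrophage array 1, which carried the keratins and the highest thymocyte sum, 4 genes were called, and without array 1 of mTEC 4 as well. Top2a, Tk1, Mcm3 and Ccnb2 kept their calls in every such fit. Thymocyte markers were lower in mTEC for 12 of 14, and their part was not tested.

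Dendritic cells were also set against the other 2 populations. Against cTEC, 10 of 33 genes passed, all lower in cTEC, where 7.18% of probe sets were called lower, with a median of -0.81 against 0.09. Arrays of cTEC lay below those of dendritic cells for 21 genes, against 22.2% of probe sets. The called genes were led by Cdk1 (-1.84 ± 0.38, adjusted p = 0.0032), Aurka (-1.85 ± 0.38, adjusted p = 0.00327) and the synthesis gene Tk1 (-1.67 ± 0.35, adjusted p = 0.00389), with Plk1, Cdc45, Kif2c, Cdc20, Nek2, Top2a and Birc5. Cdc6 (0.15) and Rrm2 (-0.22) did not pass. Only Tk1 and Aurka kept their calls without each array in turn, and 5, 6 and 3 genes were called without dendritic cell array 1, dendritic cell array 2 and cTEC array 1. The 14 tested thymocyte markers had a median change of 1.35 here, with 12 not called, and their part was not tested.

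Against macrophages, 3 genes passed and were higher in dendritic cells, with 3.63% of probe sets called higher. These were the mitotic kinases Nek2 (1.64 ± 0.36, adjusted p = 0.00884), Aurka (1.51 ± 0.38, adjusted p = 0.0214) and Cdk1 (1.29 ± 0.38, adjusted p = 0.0484). Nek2 had a mean of 293 ± 11.7 in dendritic cells and 90.8 ± 6.65 in macrophages. Of the 33 changes 31 were above 0, with a median of 0.83 against -0.08 over all probe sets, and the median was 0.54 among arrays 1 and 1.13 among arrays 2. Dendritic cell arrays lay above macrophage arrays for 22 genes, against 17.2% of probe sets. The calls depended on single arrays. Without macrophage array 1, 6 genes were called, and 1 gene without array 2 of macrophages or of dendritic cells, and none of the 3 kept its call in every fit. Nek2 lost it only without dendritic cell array 2 (adjusted p = 0.0524). With the sample number as a block 5 genes were called. The 14 tested thymocyte markers had a median change of -1.31, with 12 not called, and their part was not tested.

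cTEC and macrophages gave 1 called gene, Tk1, lower in cTEC (-1.18 ± 0.35, adjusted p = 0.0466), where 4.87% of probe sets were called lower. The call was lost without array 1 or 2 of macrophages, and without array 1 or 2 of cTEC. The median of the 33 genes was -0.17 in all, but -0.69 between the arrays numbered 1 and 0.37 between those numbered 2, so the sign turned with the array number. These 6 comparisons share arrays, and their counts are not independent of each other.

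**Figure D3:**
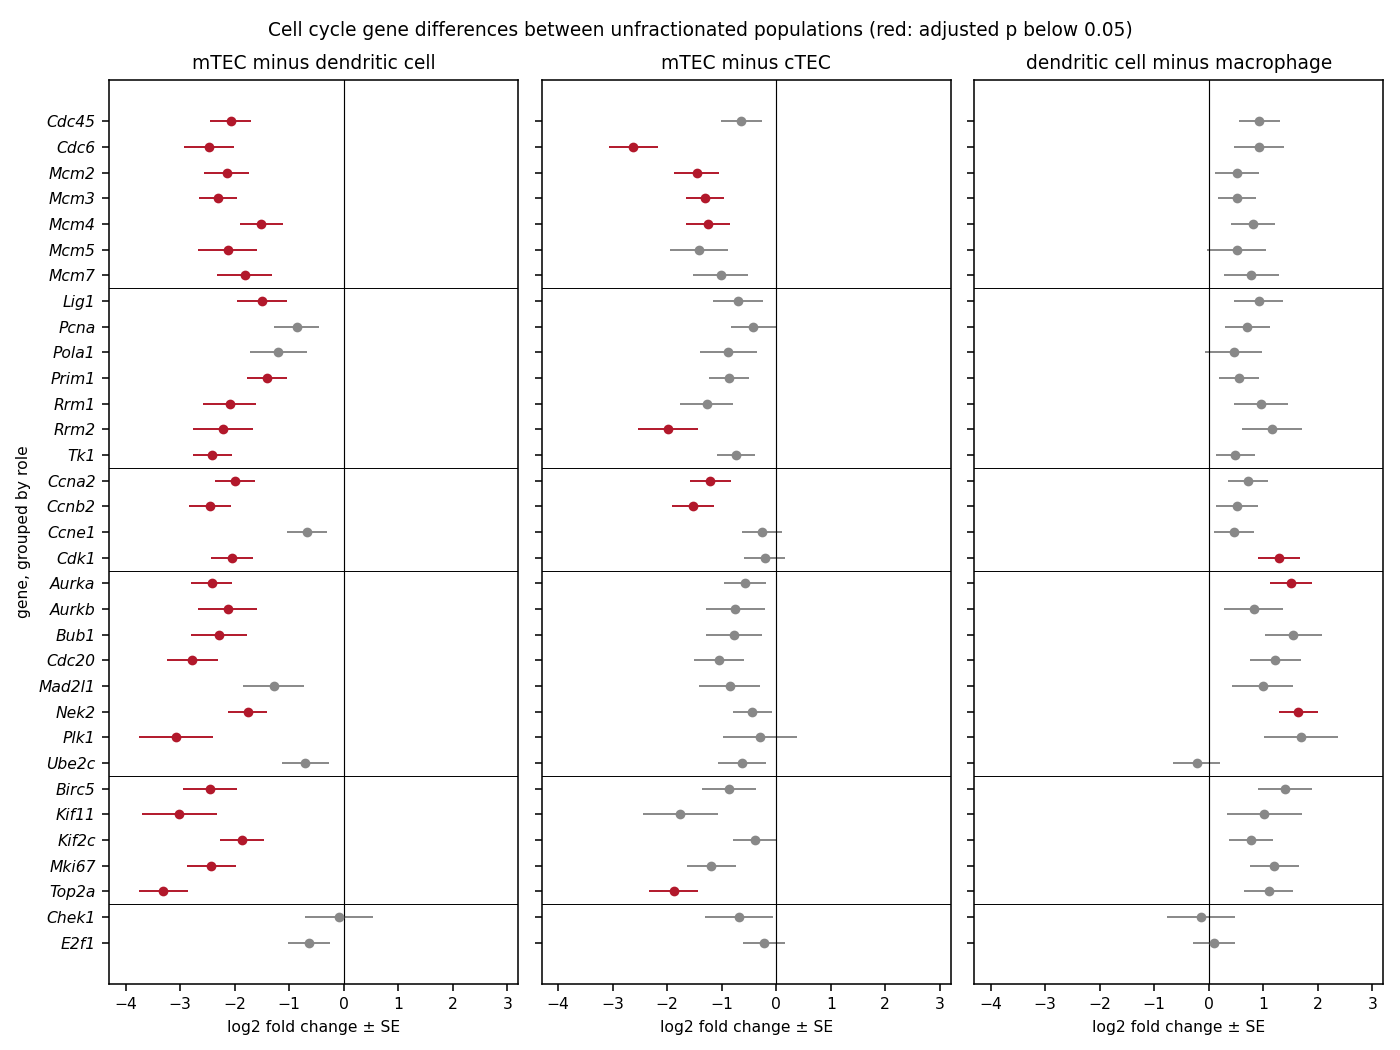
The plot gives the log2 fold change ± SE of the fit (2 arrays per group) for 33 genes in 3 comparisons, red where the adjusted p is below 0.05; horizontal lines separate roles. Against dendritic cells 26 genes are red and all points lie left of 0, against cTEC 8 are red, and between dendritic cells and macrophages 3 are red and 31 points lie right of 0.

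In wild-type mTEC, the CD80hi fraction holds the mature cells. Of the 33 genes 2 passed, both lower in CD80hi cells, Tk1 and the helicase gene Mcm3, where 4.74% of all probe sets were called lower. The fold change was below 0 for 31 genes, with a median of -0.72 against -0.04 over all probe sets. Both CD80hi arrays lay below both CD80lo arrays for 24 genes, against 32.5% of probe sets. Licensing genes had the lowest median of the larger roles, -1.14, DNA synthesis genes -0.88, chromosome and spindle genes -0.72, mitotic kinase and checkpoint genes -0.41 and cyclins with Cdk1 -0.40. Within the same-numbered arrays the median was -1.11 between arrays 1 and -0.39 between arrays 2.

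Tk1 gave 41.5 and 54.3 in wild-type CD80hi, 205 and 169 in wild-type CD80lo, 51.7 and 76.9 in knockout CD80hi and 69.3 and 90.1 in knockout CD80lo cells. The wild-type CD80lo arrays stood above the other 6, which overlapped, and the change between the wild-type fractions was -1.87 ± 0.35, adjusted p = 0.00262. Its dim second probe set changed by 1.03 and did not pass. Mcm3 gave 44.3 and 66.5 in wild-type CD80hi, 122 and 138 in wild-type CD80lo, 102 and 59.2 in knockout CD80hi and 108 and 77.0 in knockout CD80lo cells, with a wild-type change of -1.18 ± 0.34, adjusted p = 0.0355, and its second probe set changed by -0.70 (adjusted p = 0.28). The Mcm3 call was lost without any 1 of the 4 arrays, at an adjusted p of up to 0.294, and Tk1 kept its call in each. A fit on the 4 arrays alone called 11 genes, and averaging all probe sets of a gene called 0. Of the 8 further probe sets 4 had the sign of the brightest one between the wild-type fractions, and those of Tk1, Mcm5, Mki67 and Bub1 did not.

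The other licensing genes pointed the same way without passing. Mcm2 gave 36.7 and 60.8 in wild-type CD80hi, 98.8 and 123 in wild-type CD80lo, 72.2 and 38.9 in knockout CD80hi and 99.8 and 79.8 in knockout CD80lo cells, a wild-type change of -1.14 ± 0.41 (adjusted p = 0.0907). Mcm4 gave 63.8 and 90.1 in wild-type CD80hi, 143 and 202 in wild-type CD80lo, 113 and 102 in knockout CD80hi and 127 and 129.6 in knockout CD80lo cells, with -1.12 ± 0.40 (adjusted p = 0.0894). Both wild-type CD80hi arrays were the lowest or among the 3 lowest of the 8 for these genes. Cdc6 gave 29.7 and 47.1 in wild-type CD80hi, 56.9 and 73.2 in wild-type CD80lo, 78.5 and 26.1 in knockout CD80hi and 68.3 and 48.9 in knockout CD80lo cells, in which all 4 groups were far below the cTEC arrays and the fractions differed by -0.71 ± 0.45 (adjusted p = 0.402). Mcm5 and Mcm7 changed by -1.41 and -1.41 at adjusted p-values of 0.113 and 0.0891.

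Markers of cycling had lower values in wild-type CD80hi cells but did not pass. Mki67 gave 46.6 and 114 in wild-type CD80hi, 194 and 179.9 in wild-type CD80lo, 63.7 and 45.2 in knockout CD80hi and 80.6 and 151 in knockout CD80lo cells, a wild-type change of -1.30 ± 0.45 (adjusted p = 0.0771). The wild-type CD80lo arrays were the highest pair, and knockout CD80lo array 2 came next. Top2a gave 37.1 and 69.7 in wild-type CD80hi, 90.1 and 84.2 in wild-type CD80lo, 79.3 and 35.3 in knockout CD80hi and 59.0 and 50.4 in knockout CD80lo cells, with -0.72 ± 0.45 between the wild-type fractions. Ccnb2 gave 93.6 and 127 in wild-type CD80hi, 215 and 258 in wild-type CD80lo, 201 and 96.9 in knockout CD80hi and 208 and 157 in knockout CD80lo cells. Ccna2 gave 92.9 and 101 in wild-type CD80hi, 141 and 134 in wild-type CD80lo, 134 and 99.6 in knockout CD80hi and 85.7 and 112 in knockout CD80lo cells. Ccnb2 was highest on the wild-type CD80lo arrays, Ccna2 overlapped between the genotypes, and the wild-type changes were -1.08 ± 0.39 and -0.48 ± 0.37, neither called.

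The remaining genes given in full did not pass either, and several had small differences. Cdk1 gave 74.2 and 95.5 in wild-type CD80hi, 116 and 97.9 in wild-type CD80lo, 123 and 109.8 in knockout CD80hi and 102 and 124 in knockout CD80lo cells, with -0.32 ± 0.38. Pcna gave 312 and 384 in wild-type CD80hi, 404 and 503 in wild-type CD80lo, 412 and 519 in knockout CD80hi and 309 and 448 in knockout CD80lo cells, with -0.38 ± 0.41. Ccne1 gave 76.3 and 59.1 in wild-type CD80hi, 86.5 and 54.0 in wild-type CD80lo, 47.2 and 71.3 in knockout CD80hi and 52.8 and 73.5 in knockout CD80lo cells, with arrays of all groups interleaved and a wild-type change of -0.03 ± 0.37. Rrm2 gave 16.3 and 32.3 in wild-type CD80hi, 57.1 and 37.9 in wild-type CD80lo, 36.5 and 27.5 in knockout CD80hi and 13.5 and 65.8 in knockout CD80lo cells, with -0.88 ± 0.55 in wild type (adjusted p = 0.395), and knockout CD80lo held both the lowest and the highest array. Aurka gave 17 and 26.2 in wild-type CD80hi, 27.2 and 29.3 in wild-type CD80lo, 31.5 and 29.4 in knockout CD80hi and 19.0 and 16.7 in knockout CD80lo cells, with its highest arrays in knockout CD80hi cells. Nek2 gave 40.1 and 83.5 in wild-type CD80hi, 97.2 and 69.8 in wild-type CD80lo, 59.8 and 52.0 in knockout CD80hi and 44.1 and 69.1 in knockout CD80lo cells, and the arrays of the fractions overlapped. E2f1 gave 13.4 and 29.2 in wild-type CD80hi, 22.2 and 28.7 in wild-type CD80lo, 16.1 and 15.1 in knockout CD80hi and 21.1 and 16.6 in knockout CD80lo cells, again with overlap, and the wild-type changes of these 3 genes were -0.35, -0.47 and -0.27.

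Some markers of stromal cells moved with the wild-type comparison. The summed signal of 7 endothelial markers was 170 and 177 in CD80hi and 690 and 376 in CD80lo cells. Of the 7, 2 were called lower in CD80hi, Cdh5 and Emcn, and Vwf was the largest part of the sum. The sum of 7 fibroblast markers was 605 and 510 against 1315 and 1028, with 2 of 7 called lower, Dcn and Col3a1. Dcn made up most of this difference, at 292 and 232 against 1005 and 695. Of the fibroblast markers not called, Col1a1 and Pdgfrb were higher in CD80hi, Col1a2 and Pdgfra overlapped, and Lum was lower. None of these was at 0, and their part in the result was not tested. Thymocyte markers were 470 and 837 in CD80hi and 365 and 1468 in CD80lo cells, and 0 of 14 were called. The medians of the 33 genes on the CD80lo arrays were -0.02 and -0.08 in the same order, and the part of thymocytes was not tested.

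In Aire-knockout mTEC no gene passed between the fractions. Limma called 0 of 33 between knockout CD80hi and CD80lo cells, where 12.8% of all probe sets were called in either direction, and 1 had an unadjusted p below 0.05. The median change was -0.07 against -0.03 over all probe sets, with 13 changes above 0 and 20 below, and it turned to 0.01 after quantile normalization. It was 0.12 between arrays 1 and -0.34 between arrays 2, so here too the sign turned with the array number. Without knockout CD80lo array 1, which stood apart in its medullary marker sum through Cldn4, the median was -0.09. Without knockout CD80hi array 2 it was 0.13. Mki67 came closest, at -0.98 ± 0.45, adjusted p = 0.191. Without knockout CD80hi array 1 the helicase gene Mcm7 was called.

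Whether the wild-type and knockout stage differences differ was tested as an interaction, and 0 of 33 genes passed, against 1.3% of all probe sets, with 1 gene at an unadjusted p below 0.05. The interaction was above 0 for 32 genes, with a median of 0.60 against 0.01 over all probe sets. Tk1 had the largest, 1.57 ± 0.50, adjusted p = 0.219. The 33 values come from the same 8 arrays, so their common sign is not that of 33 independent measurements. A smaller stage difference in the knockout was therefore not shown for any single gene. The median moved to 0.27 without wild-type CD80hi array 1 and to 0.92 without wild-type CD80hi array 2, and 0 genes passed in either fit. Without array 1 of both knockout groups, an alternative chosen after seeing the data, the median interaction was 0.32 and 0 genes passed.

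**Figure D4:**
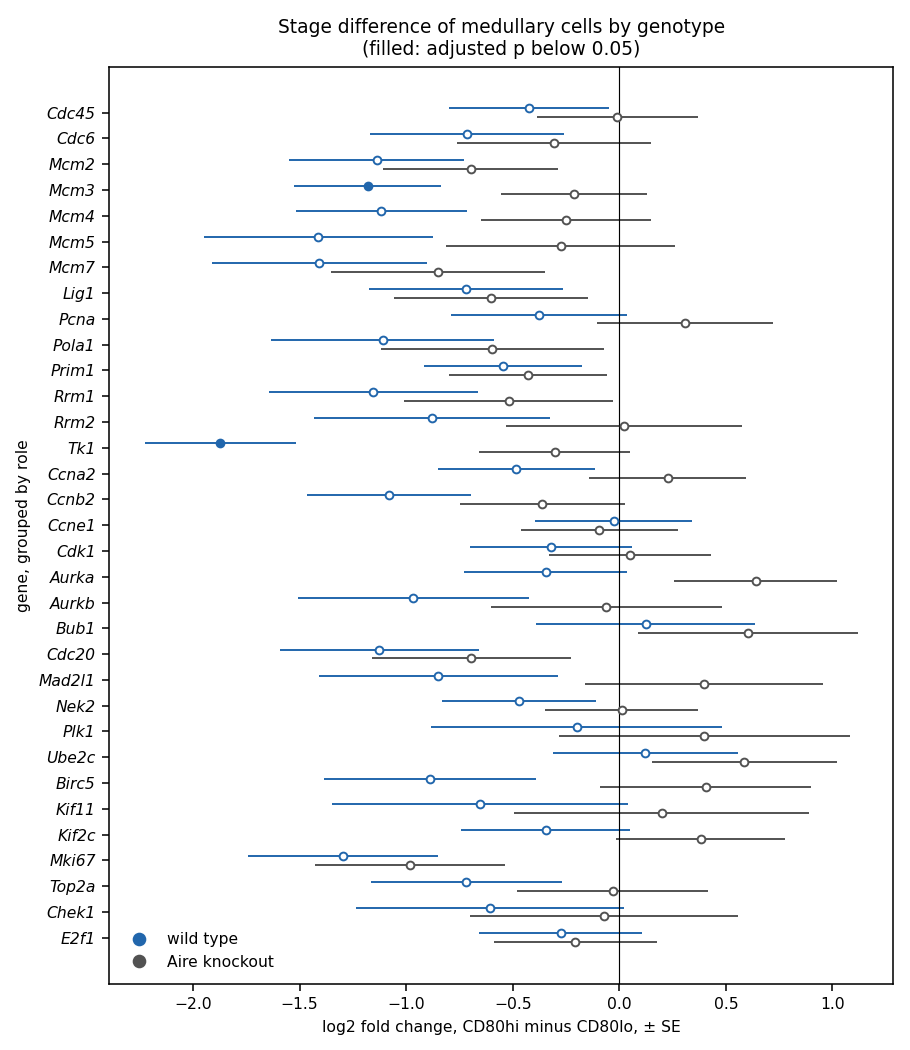
The plot gives the change from CD80lo to CD80hi cells on the log2 scale, ± SE of the fit with 2 arrays per group, for 33 genes in wild-type (blue) and Aire-knockout mTEC (grey); filled points have an adjusted p below 0.05. Tk1 and Mcm3 are the 2 filled points, 31 blue points lie left of 0, and the grey points lie on both sides, 20 left and 13 right.

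The direct comparisons of genotypes called none of the 33 genes. Between knockout and wild-type CD80hi cells limma called 0, with 3.05% of probe sets called in either direction and 0 members at an unadjusted p below 0.05. The median was 0.26 against -0.05, but 0.51 between arrays 1 and -0.20 between arrays 2, so the sign depended on the array number, and it was -0.02 without wild-type CD80hi array 1. Quantile normalization alone moved the median over all probe sets by 0.11 here. Between knockout and wild-type CD80lo cells limma also called 0, with 0.322% of probe sets called, and 2 members had an unadjusted p below 0.05. There the median was -0.41, 31 of 33 changes were below 0, and both knockout arrays lay below both wild-type arrays for 24 genes, against 19.2% of probe sets. The median was -0.48 between arrays 1 and -0.50 between arrays 2, and -0.35 with 0 genes called without knockout CD80lo array 1. Tk1 had the largest difference, -1.19 ± 0.35, adjusted p = 0.362.

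The pathway around these genes was covered by 5 further lists, with 82 tested genes in all that are not among the 37. Against dendritic cells 39 of the 82 were lower in mTEC and 4 higher, where 7.58% of all probe sets were called lower and 16.8% higher. Among the lower were 25 of 33 further mitosis genes and 11 of 29 further replication genes. Cks1b, a small subunit of the cyclin-dependent kinases (-2.72 ± 0.41, adjusted p = 0.000214), Tacc3, a spindle protein (-2.62 ± 0.43, adjusted p = 0.000429), and Rfc5, a loader of the PCNA clamp (-2.10 ± 0.35, adjusted p = 0.00049), had the smallest adjusted p among them. Against cTEC 6 were lower and 4 higher, where 4.25% of probe sets were called lower and 11.1% higher, the single-strand-binding subunit Rpa1 (-1.88 ± 0.37, adjusted p = 0.00275), the microtubule regulator Stmn1 (-1.62) and Rfc4 (-1.26) leading. Against macrophages 13 were lower, where 7.37% of probe sets were, led by Rpa1 (-1.61), Stmn1 (-1.66) and the condensin subunit Ncaph (-1.60), and 6 were higher, where 14.6% of probe sets were. A second Rfc5 probe set changed by -0.36 against dendritic cells (adjusted p = 0.564). A second Ncaph probe set changed by -0.47 against macrophages (adjusted p = 0.495). Rpa1 kept its call against cTEC without each array in turn. Stmn1 lost it there without array 2 of cTEC or of mTEC, and Rfc4 without array 2 of cTEC or either mTEC array. Against macrophages all 3 lost theirs without macrophage array 1, and also without 1 of the mTEC arrays.

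Among the inhibitors of the cyclin-dependent kinases, 2 were higher in mTEC than in each other population. Cdkn1c, which encodes p57 (probe set 95471_at), gave 894 and 875 in mTEC, 25.2 and 24.7 in cTEC, 24.2 and 12.3 in macrophages and 12.6 and 12.2 in dendritic cells. In mTEC it was bright and nearly equal on both arrays, far above all arrays of the other 3 populations. Its change was 5.69 ± 0.30, adjusted p = 8.50e-08 against dendritic cells, 5.32 ± 0.30, adjusted p = 2.84e-07 against macrophages and 4.90 ± 0.30, adjusted p = 8.22e-07 against cTEC. Cdkn2b, which encodes p15 (101900_at), gave 150.1 and 143 in mTEC, 6.90 and 8.50 in cTEC, 8.80 and 1.90 in macrophages and 30.1 and 21.5 in dendritic cells. It too was higher in mTEC than in cTEC (3.60 ± 0.37, adjusted p = 1.83e-05), macrophages (3.99 ± 0.37, adjusted p = 3.49e-06) and dendritic cells (2.32 ± 0.37, adjusted p = 0.00033). These calls of Cdkn1c and Cdkn2b held without each array in turn. Of 6 tested inhibitors, 3 were higher in mTEC than in cTEC and 0 lower, with 11.1% of probe sets called higher and 4.25% lower. The third was Cdkn1a, named after its values were seen. Against dendritic cells 2 were higher and 1, Cdkn2d, lower, with 16.8% of probe sets called higher and 7.58% lower. Cdkn2d too was named after its values were seen.

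The D cyclins, which start the G1 phase with their kinases, differed between populations one by one. Ccnd2 (97504_at) gave 128 and 122 in mTEC, 12.2 and 19.1 in cTEC, 14.4 and 23.0 in macrophages and 36.2 and 32.9 in dendritic cells. It was higher in mTEC than in cTEC (2.69 ± 0.37, adjusted p = 0.000171), macrophages (2.49 ± 0.37, adjusted p = 0.0002) and dendritic cells (1.72 ± 0.37, adjusted p = 0.00309). Ccnd3, the remaining D cyclin, went the other way and was called lower in mTEC than in each of these populations. Ccnd3 was named after its results were seen. Ccnd1 (94232_at) gave 218 and 280.4 in mTEC, 85.6 and 116 in cTEC, 50.9 and 103 in macrophages and 629 and 1102 in dendritic cells, and it stood highest in dendritic cells, by 3.43 ± 0.42, adjusted p = 0.000116 over macrophages, with a change of -3.00 ± 0.42, adjusted p = 0.000141 from dendritic cells to cTEC. Ccnd1 was also called lower in mTEC than in dendritic cells (-1.73 ± 0.42, adjusted p = 0.00671) and higher than in macrophages (1.70 ± 0.42, adjusted p = 0.00825). A dimmer second Ccnd1 probe set gave 22.2 and 41.0 in dendritic cells and 21.7 and 8.80 in macrophages (change 0.89, adjusted p = 0.306). On it mTEC changed by -0.21 against dendritic cells (adjusted p = 0.819) and by 0.68 against macrophages (adjusted p = 0.357). The dendritic cells also had more Melk, a kinase of dividing cells, than macrophages (1.99) and cTEC. They had more Cks2, a partner of Cdk1, than cTEC, with a change of -2.22 from dendritic cells to cTEC. Melk passed the filter on dim signals only through the dendritic cell arrays, so its being highest there was set by the filter and is given as a description. Its signal was 19.4 and 27.0 in dendritic cells, 2.0 and 2.40 in macrophages and 1.40 and 2.30 in cTEC, and its call against macrophages was lost without dendritic cell array 2 (adjusted p = 0.053). Between dendritic cells and macrophages 9 of the 82 pathway genes were higher in dendritic cells and 0 lower. Of 9319 probe sets, 338 (3.63%) were called higher there and 862 in either direction.

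**Figure D5:**
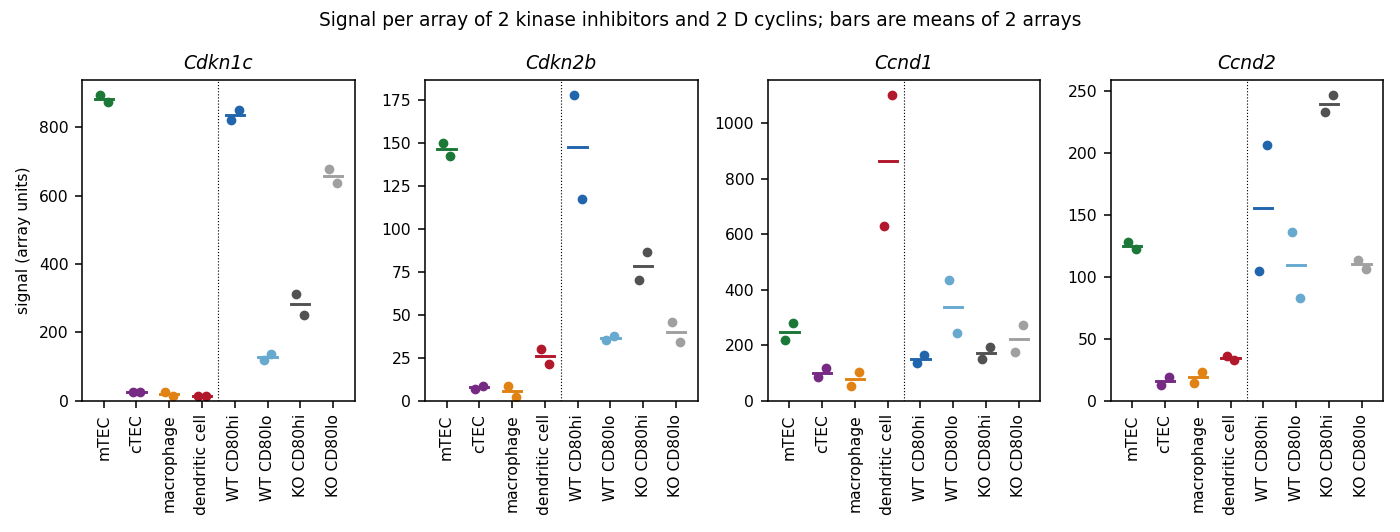
Each panel plots the linear signal of a kinase inhibitor or D cyclin gene, with a point per array, array 1 left of array 2, and a bar at the mean of 2; the dotted line separates the CD80-sorted groups. Cdkn1c lies at 894 and 875 in mTEC and at 12.2 to 25.2 in cTEC, macrophages and dendritic cells, and in knockout mTEC the CD80lo arrays lie above the CD80hi arrays, the reverse of wild type.

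Among the CD80-sorted cells, Cdkn1c was the pathway gene with the clearest dependence on stage and genotype. It gave 821 and 850.1 in wild-type CD80hi, 119 and 137 in wild-type CD80lo, 313 and 250.5 in knockout CD80hi and 677 and 638 in knockout CD80lo cells. From CD80lo to CD80hi cells the change was 2.67 ± 0.30, adjusted p = 5.21e-05 in wild type, where 7.98% of probe sets were called higher. In the knockout it was -1.22 ± 0.30, adjusted p = 0.0148. The interaction was -3.88 ± 0.42, adjusted p = 0.000596, the 1 call among the 82 pathway genes, where 1.3% of all probe sets were called. Knockout cells had less Cdkn1c than wild type in the CD80hi fraction (-1.56 ± 0.30, adjusted p = 0.00866) and more in the CD80lo fraction (2.32 ± 0.30, adjusted p = 0.00229). The wild-type stage difference and the interaction held without each array in turn. The knockout CD80lo increase was lost without wild-type CD80lo array 1 (adjusted p = 0.0535). The change in CD80hi cells did not pass once array 2 of the knockout, or array 1 or 2 of wild type, was left out (adjusted p of at most 0.0923), and that between the knockout fractions without CD80hi array 2 or either CD80lo array (up to 0.105). The medullary marker sum in knockout CD80lo cells was 2016 and 637 against 383 and 268 in wild type, with 0 of 4 markers called. Most of it was Cldn4, at 1585 and 375 against 96.3 and 110, and Cldn3 gave 294 and 166 against 77.3 and 57.4. Aire (127 and 83 against 196 and 94.4) and Cd80 (9.5 and 13.7 against 13.7 and 6.6) overlapped between the genotypes. The part of these markers was not tested.

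Cdkn2b gave 178 and 118 in wild-type CD80hi, 35.4 and 37.6 in wild-type CD80lo, 70.3 and 86.6 in knockout CD80hi and 45.8 and 34.4 in knockout CD80lo cells. In wild type it was higher in CD80hi cells by 1.86 ± 0.37, adjusted p = 0.00375, a call lost without CD80hi array 1 (adjusted p = 0.0653). A further 3 pathway genes were lower in wild-type CD80hi cells, of 82 tested and where 4.74% of all probe sets were called lower. They were Stmn1 (-1.49 ± 0.41, adjusted p = 0.0249), the mitotic kinesin Kif20a (-1.60 ± 0.45, adjusted p = 0.029) and the polymerase subunit Pold2 (-1.69 ± 0.52, adjusted p = 0.0479), and each call was lost without at least 3 of the 4 arrays in turn. In the knockout, the replicative polymerase subunit Pole2 (-1.63) and the G1 kinase Cdk4 (-1.22) were lower and the E2F partner Tfdp1 (1.95) and the kinesin Kif4 (1.34) higher in CD80hi cells, with adjusted p-values of 0.0226, 0.0373, 0.0374 and 0.0378. A second Cdk4 probe set changed by -0.02 (adjusted p = 0.988), and a second tested Tfdp1 probe set by 1.82 (adjusted p = 0.0351). With Cdkn1c, the called genes were 5 of 82, where 12.8% of all probe sets were called. Each of these was lost without at least 2 of the 4 arrays in turn.

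Set against the promoter letters shown above, the groups of genes had these changes. Between mTEC and dendritic cells the median change was -2.09 for 9 tested genes with an E2F match alone, -2.44 for 10 with CHR and CCAAT alone, -2.05 for 3 with both and -1.52 for 8 with neither. Between mTEC and cTEC the medians were -1.28, -0.91, -1.02 and -0.43 in the same order, and between the wild-type CD80hi and CD80lo fractions -0.88, -0.54, -1.30 and -0.42. These are descriptions of small groups of genes, and no difference between them was tested.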

How the data were processed

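Total RNA of 16 FACS-sorted samples was measured on Affymetrix mouse arrays, 8 groups of 2 by the titles. The deposited values are linear intensities per probe set, as the authors provided them. Every array had a 2%-trimmed mean of 100.1, which leaves overall RNA content out of the values. The software is not given in the sources used here. Of 12488 probe sets, 66 controls and 3103 dim ones were left out, which means a signal over 17.3 (percentile 40) on fewer than 2 arrays, and 9319 were tested. By the platform annotation 10833 had 1 gene symbol, 396 several and 1193 none listed, and genes were named from probe sets with 1 symbol. A constant of 4.8, percentile 20, was added before log2. One limma model (3.58.1, in R 4.3.3) covered all 16 arrays. It used lmFit and the trend option of eBayes. The residual degrees of freedom were 8 and the prior ones 5.97, with 2-sided tests and Benjamini-Hochberg adjustment within a comparison over all tested probe sets. The steps were tested on simulated data. Python 3.11.15 with numpy 2.4.6, pandas 2.3.3 and matplotlib 3.10.9 made the counts and plots. Promoter sequences are RefSeq's on GRCm38.p6.

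Members and lists were chosen with earlier results of these data known. Values on every array are given for 16 members, namely those called within the CD80-sorted groups, between the epithelial types or between dendritic cells and macrophages, and representatives of each role (Ccnb1 had been named for this and has no probe set). Other comparisons name the 3 called members with the smallest adjusted p, and the pathway lists 3 per direction, and further members by their change or by name. The 5 promoters are the first of each kind by alphabet whose motifs lie in the 180 bases shown. The Pearson r of both arrays of a group over probe sets was 0.896 to 0.966. Deviations of same-numbered arrays correlated at 0.279 to 0.526 in all 6 pairs of the populations not split by CD80. This is a hint from the data that a number marks a shared batch there. Between the fractions the values were 0.17 in wild type and 0.52 in the knockout. Knockout CD80hi and CD80lo arrays correlated with dendritic cells at 0.383 and 0.371 and with macrophages at 0.335 and 0.355. With cTEC and mTEC they correlated at 0.0813 to 0.213. Alternatives were quantile normalization, a constant of 1, no filter, no trend, only the groups compared, the sample number as a block, the mean over probe sets and each array left out, with 1 added after seeing the data, which left out array 1 of each knockout group.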

Additional observations from a re-analysis of the deposited data

Results flagged for a closer look

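The difference of Cdkn1c between CD80hi and CD80lo cells differed between the genotypes by a test of the difference itself. The interaction was -3.88 ± 0.42, adjusted p = 0.000596 in the limma fit with 2 arrays per group, and over the alternatives run it lay between -4.04 and -3.72, with adjusted p-values of 0.000178 to 0.0154, the highest without array 1 of both knockout groups. It rose from CD80lo to CD80hi cells in wild type (2.67 ± 0.30) and fell in the knockout (-1.22 ± 0.30), and the arrays of the 4 groups did not overlap.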

How the results depend on the processing

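Over all comparisons there were 60 calls of one of the 33 genes, and none reversed its sign under the alternatives run. Of the 60, 60 stayed called with the sample number as a replicate block, 57 after quantile normalization, 56 with a constant of 1 and 56 without the trend, 53 without the filter, 53 with the mean over probe sets and 41 when only the groups compared were fitted. Leaving out 1 array at a time, 147 of 240 calls stayed. With the replicate block, wild-type CD80hi against CD80lo cells called 6 genes in place of 2 (Tk1, Mcm3, Mcm4, Mcm7, Mki67 and Pola1) and dendritic cells against macrophages 5 in place of 3, and no other count moved by over 1.5 times. With only the groups compared, wild-type CD80hi against CD80lo called 11, mTEC against macrophages 5, cTEC against dendritic cells 5, and dendritic cells or cTEC against macrophages 0. For cTEC against macrophages the constant of 1, no filter, no trend and the mean over probe sets also called 0, and the mean over probe sets called 0 between the wild-type fractions. Leaving out each array in turn, the counts ranged from 1 to 2 between the wild-type fractions, 0 to 1 between the knockout fractions, 1 to 6 for mTEC against cTEC, 1 to 6 for dendritic cells against macrophages, 4 to 12 for mTEC against macrophages, 3 to 8 for cTEC against dendritic cells, 18 to 24 for mTEC against dendritic cells and 0 to 1 for cTEC against macrophages. A left-out array leaves its group with 1 sample, which is assumed to vary like the others. Fits without an array or with only the groups compared held fewer arrays, and the cause of these shifts was not tested. After quantile normalization the median over all probe sets shifted by -0.25 for mTEC against dendritic cells, -0.14 against macrophages and -0.12 against cTEC, by -0.13 for cTEC against dendritic cells and by 0.11 for dendritic cells against macrophages. The median of the 33 genes for mTEC against dendritic cells was then -2.14 in place of -2.09.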

Other observations

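Same-numbered arrays shared shifts in some of these genes. Of 33 genes, 9 were higher on array 2 than on array 1 in all 4 populations not split by CD80, namely Mcm4, Ccna2, Pcna, Plk1, Bub1, Kif11, Chek1, Mad2l1 and Pola1, and 2, Tk1 and Ccne1, were lower on array 2 in all 4. For the kinase gene Plk1 array 2 exceeded array 1 by 1.10 in mTEC, 2.76 in cTEC, 1.11 in dendritic cells and 0.82 in macrophages on the log2 scale. For the motor gene Kif11 the differences were 1.20, 1.94, 1.68 and 0.74 in the same order. With 2 arrays per group these are values without a test, and the genes were named after their values were seen. The share of all probe sets with such shifts was not counted, so the counts show nothing particular to these genes.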
